A study of Arabidopsis thaliana with 4 samples.

Results

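The loci described here are entries of the Arabidopsis thaliana gene tables that have no annotated transcript, and hence no exon length, but to which reads were still assigned. They were chosen by the reads themselves: a named locus with an empty exon length entered when its total gene reads, summed over the 4 libraries, reached 40. Of 33316 named loci 6118 had an empty exon length, and 4303 of these carried no read at all. A further 1224 carried between 1 and 39 reads, which left 591 loci. No locus had a sum of exactly 40. Just outside the minimum were AT4G09875 and AT5G40348 with 39 reads each, and just inside were AT4G13996 and AT2G07767 with 41 reads each.

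The study sequenced stem base RNA of WT plants and of the mutant mol1-1, both in the Col-0 background, with 2 libraries per genotype. MOL1 encodes a receptor-like kinase that restrains the thickening of the stem. Both genotypes were kept in short days (8 h light) for 3 weeks and then in long days (16 h light). Polyadenylated RNA was prepared from 1 cm of stem just above the rosette of plants 15 to 20 cm tall. The labels do not say how many plants made a library or whether replicates were grown apart, so p-values measure only the spread between these libraries.

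The WT libraries held 31298454 and 28488308 gene reads in named loci, and the mol1-1 libraries 37636920 and 29007081. Values for single libraries are given with replicate 1 before replicate 2, WT before mol1-1. Levels are given as reads per 1000000 gene reads of the library (RPM), at which 3 reads equal 0.0797 to 0.105 RPM. RPM is not scaled to length. MOL1 (AT5G51350) itself had 30.0 and 29.0 RPM in WT against 9.09 and 9.10 RPM in mol1-1. The 8 genes that mark stem vascular tissue, such as the cellulose synthase gene CESA4, summed to 7042 and 9156 RPM in WT and 9257 and 5772 RPM in mol1-1. The 7 markers of flower, root and seed measured here summed to between 0.0351 and 0.990 RPM, with 2 of them at 0 reads in all libraries.

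Several kinds of gene make RNA without coding for protein. A microRNA gene is transcribed into a long primary transcript with a cap and a poly(A) tail, and DCL1 with its partners HYL1 and SE cuts a hairpin out of it, from which the short mature microRNA is released. The primary transcript can therefore appear among polyadenylated RNA, whereas the mature microRNA cannot. Pseudogenes are decayed copies of genes or of mobile elements, transposons are mobile elements that plants hold silent by DNA methylation and small RNAs, and long non-coding RNAs often lie antisense to a coding gene.

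By the RefSeq annotation of the assembly TAIR10.1, the 591 loci comprised 10 microRNA genes, 285 pseudogenes, 20 transposon loci and 275 other non-coding loci, with 1 locus, AT3G07274, that was not in the reference table. RefSeq's own types did not define the transposon class. It holds loci whose record text names transposons or the Sadhu or Mustang families. The share of loci that reached the minimum differed between kinds. It was reached by 10 of 177 microRNA genes, 157 of 3880 pseudogene records without a transcript, 128 of 911 transcribed pseudogenes, 11 of 16 loci of the Sadhu family, 8 of 8 of the Mustang family, 127 of 221 long non-coding RNAs and 24 of 71 small nucleolar RNAs. No locus of the 623 tRNA genes reached it. RefSeq files most transposable elements of this genome under pseudogenes without a family name, so the pseudogene class is a mixture of both.

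The sequences of the 2 loci that differed between the genotypes, and of the microRNAs whose genes carried reads, are shown first, since the results turn on them. AT5G35935 is a pseudogene record at chr5:14083388-14089891 on the minus strand, 6504 bp long. A stretch of 109 bp inside the locus, at chr5:14088427-14088535, recurs just past its 3′ end, at chr5:14083274-14083382, and the copies are 97.2% identical and 5044 bp apart. Both are printed on the minus strand of TAIR10.1, with the 3 bases that differ in capitals.
Repeat nearer the 5′ end: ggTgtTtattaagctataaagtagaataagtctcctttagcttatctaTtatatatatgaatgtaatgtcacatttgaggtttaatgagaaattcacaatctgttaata
Repeat nearer the 3′ end: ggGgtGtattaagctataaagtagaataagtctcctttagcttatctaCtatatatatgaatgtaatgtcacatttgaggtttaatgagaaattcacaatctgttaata

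AT2G05914 is a long non-coding RNA at chr2:2263124-2264543 on the minus strand, 1420 bp long. The 250 bases before and 50 after the annotated start of both loci were searched on both strands for TATAAA (the TATA box), GCCGCC (the GCC-box core bound by ethylene response factors), TTGACC (the W-box), GAANNTTC (the heat shock element core) and CACGTG (the G-box). TATAAA was found in 48.8% of the 37897 such windows of all locus records, and the others in 2.72%, 13.5%, 11.4% and 6.46%, in that order. The window of AT5G35935 held TATAAA on the opposite strand at 2 places, in capitals below, and none of the other motifs. The window of AT2G05914 held none of the 5, and the windows are chr5:14089842-14090141 and chr2:2264494-2264793, both on the minus strand of TAIR10.1.
AT5G35935 start region: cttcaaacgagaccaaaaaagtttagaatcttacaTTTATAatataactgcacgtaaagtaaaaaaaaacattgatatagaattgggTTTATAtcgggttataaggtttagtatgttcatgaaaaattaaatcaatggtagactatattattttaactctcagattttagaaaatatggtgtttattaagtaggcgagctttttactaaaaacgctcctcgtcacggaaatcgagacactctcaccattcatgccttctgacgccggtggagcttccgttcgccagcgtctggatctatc
AT2G05914 start region: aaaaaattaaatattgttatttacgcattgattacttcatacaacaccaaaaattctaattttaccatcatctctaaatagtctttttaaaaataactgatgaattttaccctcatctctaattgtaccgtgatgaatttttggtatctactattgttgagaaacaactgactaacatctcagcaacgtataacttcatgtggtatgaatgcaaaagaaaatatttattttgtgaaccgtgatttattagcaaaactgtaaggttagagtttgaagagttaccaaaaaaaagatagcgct

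The mature microRNAs below, from RefSeq's annotation and the TAIR10.1 sequence, have their seed (bases 2 to 8) in capitals. All seeds of the 17 mature microRNAs at these loci were distinct, so no loci could be grouped by a shared seed.
ath-miR167d: uGAAGCUGccagcaugaucugg
ath-miR159b-3p: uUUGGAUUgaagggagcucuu
ath-miR172a: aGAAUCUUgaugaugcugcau
ath-miR824-5p: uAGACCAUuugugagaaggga
ath-miR414: uCAUCUUCaucaucaucguca

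miR167d belongs to a family that cleaves the transcripts of ARF6 and ARF8, which encode auxin response factors. The best match to miR167d in each gene is shown on the gene's own strand. Bases that differ from the exact complement of the microRNA are in capitals. Each site has 5 such differences over 22 bases, with G:U pairs counted as differences.
ARF6 site: TGagatcaGgctggcagcttGT
ARF8 site: TTagatcaGgctggcagcttGT

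Gene reads of all loci were compared between genotypes with edgeR's quasi-likelihood test, with Benjamini-Hochberg adjustment over the 19660 loci tested and a threshold of 0.05. Of the 591 loci 584 passed the filter on low counts and were tested, and 2 of them (0.342%) differed, AT5G35935 and AT2G05914. Both were higher in mol1-1. Over all loci tested 0.285% passed, with 0.264% higher and 0.0203% lower in mol1-1, so the share among the non-transcript loci was near the background. An unadjusted p under 0.05 was reached by 31 of the 584 (5.31%), against 5.86% of all loci. Both mutant libraries lay above both WT libraries for 73 of the 584 (12.5%) and below for 118 (20.2%), against 12.9% and 21.5% of all loci. The median log2 fold change, mol1-1 over WT, was -0.07 for these loci and -0.04 for all loci, and the median standard error was 0.33 against 0.18.

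**Figure D1:**
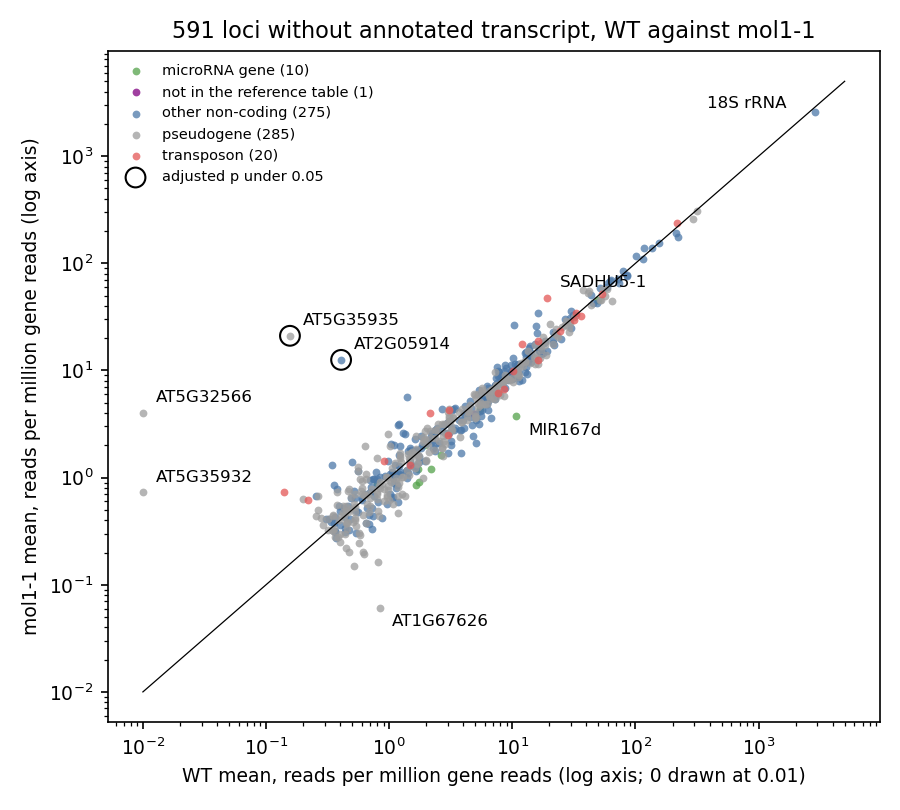
Mean level of each of the 591 loci in WT (x axis) and mol1-1 (y axis), in RPM on log axes, coloured by annotation class, with the line of equal levels. Most loci follow the line, and the 2 circled loci, with an adjusted p under 0.05, lie far above it at 21.1 and 12.6 RPM in mol1-1.

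AT5G35935 had few reads in WT and many in the mutant. It had 1 and 8 reads in the WT libraries against 807 and 600 in the mol1-1 libraries. The genotypes did not overlap, and the mutant libraries were close to each other. The level was 0.156 ± 0.176 RPM in WT (SD, n = 2) and 21.1 ± 0.535 RPM in mol1-1 (SD, n = 2), which is 7.09 on the log2 scale (SE 0.46; edgeR adjusted p 0.0112). All of its reads were unique, no other stretch of the nuclear genome matched at least 50% of its length at 90% identity or more, and no other annotated locus overlapped it.

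The neighbours of AT5G35935 were quiet in WT as well. AT5G35932, a transcribed pseudogene that is itself among the 591 loci and lies 5020 bp away, had 0 reads in both WT libraries and 43 and 9 reads in mol1-1, all unique. Against a floor of 3 reads per WT library its mean of 0.726 RPM in mol1-1 was at least 7.22-fold higher, and mol1-1 replicate 2 alone at least 3.08-fold. It entered the 591 loci through its mutant reads alone, failed the filter on low counts and was not tested in the main comparison. On the other side AT5G35940, a coding gene 682 bp away, had 0 reads in every library.

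AT2G05914 showed the same kind of difference at a lower level. It had 9 and 15 reads in WT against 452 and 380 in mol1-1, and again the genotypes did not overlap. This locus too reached the read minimum only through its mutant reads. Its level was 0.407 ± 0.169 RPM in WT (SD, n = 2) and 12.6 ± 0.771 RPM in mol1-1 (SD, n = 2), which is 4.95 on the log2 scale (SE 0.31; edgeR adjusted p 0.0112). Unique reads numbered 8 and 11 in WT and 329 and 263 in mol1-1.

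AT2G05914 runs opposite to the coding gene AT2G05915, which covers 31.7% of its length. AT2G05915 itself was listed with 1, 2, 0 and 2 reads. Of the reads of AT2G05914 71.4% were unique and 245 were not, against 5 non-unique reads listed for AT2G05915. The use of strand in counting is not given in the sources used here, so the strand of reads in the shared stretch is not known. The nearest genes beside the pair did not pass the test. AT2G05910, 3490 bp away, had 100, 99, 100 and 115 reads, and AT2G05920, 4771 bp away, had 9320, 7801, 9007 and 8251.

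The counts of differing loci depended on single libraries. Without mol1-1 replicate 1 the test passed 9 of these loci (1.8% of all loci), and without mol1-1 replicate 2 it passed 5 (0.746% of all loci). AT5G35935 and AT2G05914 were among them each time.

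**Figure D2:**
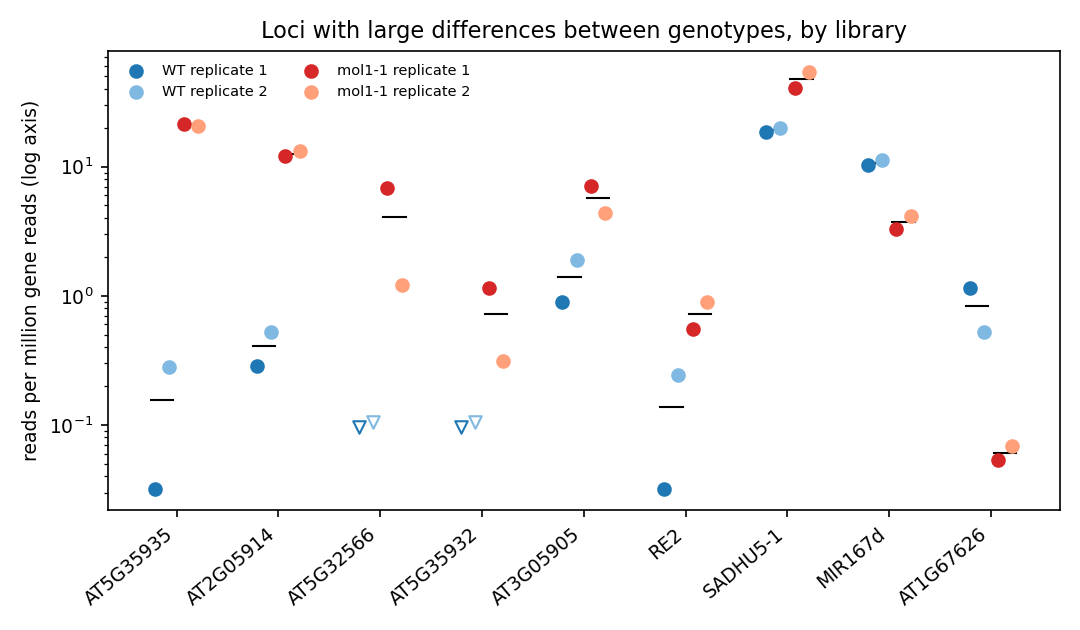
Level of 9 loci in each library, in RPM on a log axis; filled circles are libraries, black lines are genotype means, and open triangles stand for 0 reads, drawn at the level of 3 reads. AT5G35935 and AT2G05914 passed the test, 6 others missed the threshold, and AT5G35932 was not tested; MIR167d and AT1G67626 are the loci whose mutant libraries lie below.

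The 10 microRNA genes that carried enough reads were mostly at lower levels in the mutant, but none passed the test. Their summed level was 83.4 and 73.8 RPM in WT and 65.6 and 58.3 RPM in mol1-1, a log2 ratio of -0.34. The genotypes did not overlap, and the two-sided exact permutation p was 0.333, the smallest that 2 libraries against 2 can give. The log2 fold change was below 0 for 8 of the 10, against 59.1% of all loci tested, with a median of -0.61 against -0.04 for all loci. Without WT replicate 1 the median was -0.31, with 7 of 10 below 0, and without mol1-1 replicate 1 it was -0.86, with 9 of 10. Both mutant libraries lay below both WT libraries for 5 of the 10, and for 21.5% of all loci.

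MIR167d (AT1G31173, chr1:11137539-11137915, plus strand) showed the largest difference among them. It had 321 and 320 reads in WT and 123 and 121 in mol1-1, all unique. The level was 10.7 ± 0.691 RPM in WT (SD, n = 2) and 3.72 ± 0.639 RPM in mol1-1 (SD, n = 2). The log2 fold change of -1.53 (SE 0.21) missed the threshold (edgeR adjusted p 0.0616). With 1 library left out, the log2 fold change ranged from -1.72 to -1.36. With all 4 libraries kept, MIR167d passed without a filter, with DESeq2 (adjusted p 1.46e-05) and with both replicate blocks. It missed the threshold with TMM, RLE or upper-quartile scaling (adjusted p 0.0761 for the last), unique reads, a filter at 1 RPM and limma-voom. The annotated locus includes the mature sequence shown above, close to its 5′ end.

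The targets with a site shown above did not pass the test. ARF6 had 3786 and 3137 reads in WT and 3685 and 2347 in mol1-1, a log2 fold change of -0.37 (SE 0.15). ARF8 had 1914 and 1881 reads in WT and 2240 and 1656 in mol1-1, a log2 fold change of -0.13 (SE 0.13). Scaled to library size, both mutant libraries lay below both WT libraries in each gene, as for 21.5% of all loci tested. The levels were 97.9 and 80.9 against 121.0 and 110.1 RPM for ARF6, and 59.5 and 57.1 against 61.2 and 66.0 RPM for ARF8.

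MIR414 carried the most reads of the microRNA genes, 1604 and 1372 in WT and 1753 and 1269 in mol1-1, and its fold change was small (log2 -0.14, SE 0.12). Without it the log2 ratio of the summed class was -0.78. MIR824, whose microRNA targets the MADS-box gene AGL16, had 89 and 70 reads against 55 and 51 (log2 fold change -0.72, SE 0.30). MIR172a, whose microRNA represses AP2 and its relatives, had 80 and 51 reads against 51 and 30 (-0.86, SE 0.36). MIR159b, whose microRNA targets MYB33 and MYB65, had 71 and 34 reads against 27 and 32 (-0.94, SE 0.46).

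In these 3 genes the mutant libraries lay below both WT libraries, and their adjusted p ranged from 0.851 to 0.942. The remaining microRNA genes overlapped between genotypes. MIR869 had 172, 153, 237 and 72 reads, so the mutant libraries stood on either side of WT. MIR163 had 59, 44, 61 and 23 reads, and MIR164b, whose microRNA restricts the boundary genes CUC1 and CUC2, had 84, 18, 40 and 19.

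MIR398c had 96, 25, 96 and 43 reads, of which 2.69% were unique. Its microRNA targets copper/zinc superoxide dismutase genes, and the locus has 1 copy in the genome, 96.6% identical to it. The level of this gene alone is therefore uncertain. MIR863 had 33, 15, 25 and 32 reads and shares 58.7% of its length with the non-coding locus AT4G13495, which had 7024, 6184, 6258 and 5342.

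The trans-acting siRNA loci are non-coding transcripts that a microRNA cleaves and that are then turned into small RNAs with the help of RDR6. Of 8 such loci 7 were among the 591, and none passed the test. TAS1B had 264 and 175 reads in WT and 186 and 174 in mol1-1, TAS1C had 595 and 478 against 495 and 466, and TAS2 had 866 and 628 against 686 and 615. Scaled to library size, both mutant libraries lay below both WT libraries for these 3, with log2 fold changes of -0.42 (SE 0.24), -0.29 (SE 0.17) and -0.34 (SE 0.17). The same held for 21.5% of all loci tested.

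TAS1A had 322, 232, 282 and 279 reads and TAS4 (AT3G25795) had 22, 7, 14 and 8, with the genotypes overlapping in both. TAS3, the source of small RNAs against auxin response factor genes, had 519 and 403 reads in WT and 442 and 673 in mol1-1, so only mol1-1 replicate 2 stood above WT. TAS3b had 17 and 13 reads in WT and 28 and 59 in mol1-1, a difference of 1.45 on the log2 scale (SE 0.59, adjusted p 0.833). The median log2 fold change of the 7 loci was -0.29, against -0.04 for all loci. For the 7 loci it was 0.07 without WT replicate 1 and -0.16 without mol1-1 replicate 1.

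**Figure D3:**
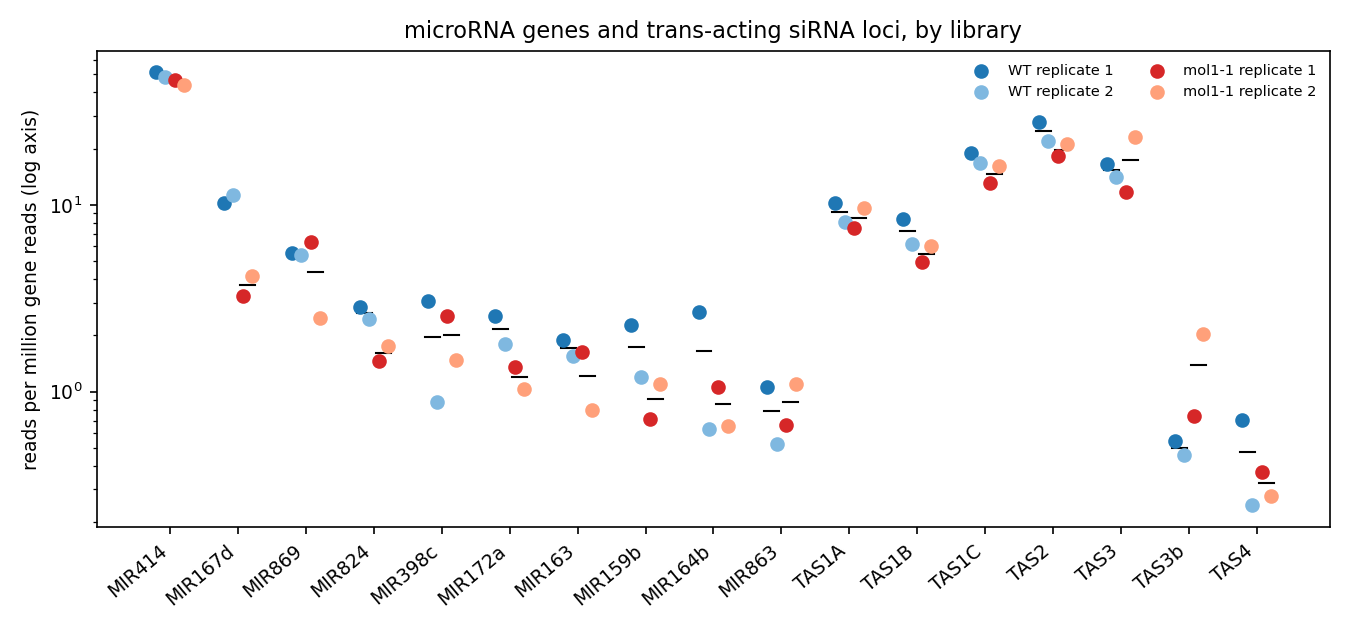
Level of the 10 microRNA genes and 7 trans-acting siRNA loci in each library, in RPM on a log axis; circles are libraries and black lines genotype means. MIR167d shows the widest gap between genotypes among the microRNA genes, from 10.7 RPM in WT to 3.72 RPM in mol1-1.

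The genes that make and use microRNAs did not differ detectably. All 15 listed genes of microRNA processing and action were tested and none passed. DCL1, which cuts the primary transcript, had 1914 and 1999 reads in WT and 2573 and 1426 in mol1-1 (log2 fold change -0.16, SE 0.19). The smallest p values belonged to ABH1, a cap-binding subunit, at -0.41 on the log2 scale (SE 0.16, adjusted p 0.821), and SDN1, which degrades microRNAs, with -0.35 (SE 0.21, adjusted p 0.97). The median of the list was -0.10, with 13 genes below 0 and 2 above, and without mol1-1 replicate 2 it was 0.03, with 7 below and 8 above. Over all loci tested the median was -0.04, with 59.1% below 0.

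Of 51 listed microRNA targets 47 were tested and none passed. Their median log2 fold change was -0.06, against -0.04 for all loci. NLA, a target of miR827 that limits phosphate uptake, had 1394 and 1477 reads in WT and 2406 and 2067 in mol1-1 (log2 fold change 0.49, SE 0.14, adjusted p 0.548). TCP2, a target of miR319, had 85 and 80 reads against 69 and 45 (-0.70, SE 0.28, adjusted p 0.833). In both the genotypes did not overlap, as for 12.9% of all loci tested with the mutant higher and 21.5% with the mutant lower.

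The 20 transposon loci had close summed levels in the WT libraries and gave no call. Their sum was 495 and 497 RPM in WT and 494 and 593 RPM in mol1-1, a log2 ratio of 0.13 with a two-sided exact permutation p of 1. Only mol1-1 replicate 2 stood apart, and without it the log2 ratio was -0.006. The 11 Sadhu loci, a family of short retroposons of Arabidopsis, made 337 and 329 RPM in WT and 336 and 448 RPM in mol1-1. The 8 Mustang loci, genes domesticated from transposases, made 158 and 168 RPM against 158 and 144 RPM.

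SADHU5-1 (AT4G01525, chr4:660810-661698, plus strand) had 575 and 566 reads in WT and 1535 and 1577 in mol1-1, all unique. Its level was 19.1 ± 1.06 RPM in WT (SD, n = 2) and 47.6 ± 9.60 RPM in mol1-1 (SD, n = 2). The log2 fold change of 1.31 (SE 0.17) missed the threshold (edgeR adjusted p 0.0561). With 1 library left out, the log2 fold change ranged from 1.09 to 1.51. With all 4 libraries kept, SADHU5-1 passed without a filter, with DESeq2 and with both replicate blocks. It missed the threshold with TMM, RLE or upper-quartile scaling, unique reads, a filter at 1 RPM and limma-voom.

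SADHU1-1 carried the most reads of the class, 6903 and 6074 in WT and 7310 and 8191 in mol1-1. Its log2 fold change was 0.14 (SE 0.21), with the genotypes overlapping. SADHU1-3 had 345 and 368 reads against 614 and 549 (log2 fold change 0.56, SE 0.16, adjusted p 0.55), and SADHU6-1 had 28 and 26 against 50 and 45 (0.67, SE 0.36, adjusted p 0.962). In both the mutant libraries lay above both WT libraries, as for 12.9% of all loci tested. Of the 10 Sadhu loci tested 7 had a log2 fold change above 0, against 40.9% of all loci, and without mol1-1 replicate 2 this held for 5 of 10.

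RE2, a copia-type retrotransposon, was scarce in all libraries, with 1 and 7 reads in WT and 21 and 26 in mol1-1. The log2 difference of 2.38 (SE 0.80) had an adjusted p of 0.685. Among the Mustang loci 7 of 8 log2 fold changes were below 0, against 59.1% of all loci tested. Their median was -0.13, against -0.04 for all loci. Without mol1-1 replicate 2 it was -0.03, with 6 of 8 below 0, and leaving out WT replicate 2 gave -0.06, with 5 of 8. The furthest was MUG5, with 527 and 447 reads in WT and 495 and 349 in mol1-1 (-0.37, SE 0.15, adjusted p 0.817).

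The 15 listed genes of transposon silencing were tested and none passed. DDM1, a chromatin remodeller required for DNA methylation, had 336 and 234 reads in WT and 283 and 291 in mol1-1 (log2 fold change -0.11, SE 0.22). MET1, which maintains CG methylation, had 982 and 869 against 1173 and 866 (-0.02, SE 0.12). The smallest p values were those of RDR6 (-0.35, SE 0.16, adjusted p 0.922) and NRPD1A, the large subunit of RNA polymerase IV (-0.29, SE 0.20, adjusted p 0.977). The list had a median of -0.07, with 12 genes below 0 and 3 above, and without mol1-1 replicate 2 it was -0.02, with 8 below and 7 above. With TMM scaling it was -0.03, also with 8 below and 7 above. Over all loci tested the median was -0.04, with 59.1% below 0.

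The 285 pseudogenes summed to 2389 and 2527 RPM in WT and 2500 and 2238 RPM in mol1-1, a log2 ratio of -0.05 with a two-sided exact permutation p of 0.667. Without mol1-1 replicate 2 the log2 ratio was 0.02. Of 281 tested, 1 passed, AT5G35935. Reads were concentrated in few loci. AT1G79245, a transcribed pseudogene, had 8415 and 10235 reads in WT and 13972 and 6901 in mol1-1, and AT2G11240 had 8625 and 8814 against 11775 and 5849.

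In both of these the mutant libraries stood on either side of the WT libraries, and mol1-1 replicate 2 was the lowest library. Of the 8 stem vascular markers 4 were also lowest in that library, namely CESA4, CESA7, CESA8 and SEOR1, while PXY and WOX4, which act in the cambium, were highest there. SUC2 and APL were lowest in a WT library, with 277 RPM in WT replicate 1 and 12.3 RPM in WT replicate 2. In mol1-1 replicate 2 they had 282 and 13.0 RPM. The part of tissue composition in these values was not tested, and in a bulk sample fewer cells of a type and less RNA per cell cannot be told apart. AOP2, a glucosinolate gene that is not functional in Col-0, had 2716 and 1210 reads in WT and 2201 and 863 in mol1-1. The replicates of each genotype thus differed more than the genotypes did (log2 fold change -0.55, SE 0.41).

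Among pseudogenes 16 loci had a log2 fold change of at least 1 in size, 8 in each direction, mostly on few reads. AT5G32566 had 0 reads in both WT libraries and 259 and 35 in mol1-1, so it reached the read minimum through the mutant alone. Its mean of 4.04 RPM in mol1-1 was at least 40.2-fold higher than the floor of 3 reads per WT library, and mol1-1 replicate 2 alone was at least 12-fold higher. The adjusted p was 0.225. With all 4 libraries kept, the locus passed without a filter, with DESeq2 and with both replicate blocks, and missed the threshold in the other alternatives. The locus has 8 copies in the genome, the closest 96.4% identical, and 71.8% of its reads were unique. AT1G67626 went the other way, with 36 and 15 reads in WT and 2 and 2 in mol1-1 (log2 fold change -3.72, SE 0.74, adjusted p 0.205). It has 2 copies, and 63.6% of its reads were unique.

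One pseudogene record, AT4G04409, contains the mature sequence of miR841b-3p and so belongs by content with the microRNA genes. It had 19, 20, 26 and 13 reads, all unique. The genotypes overlapped.

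**Figure D4:**
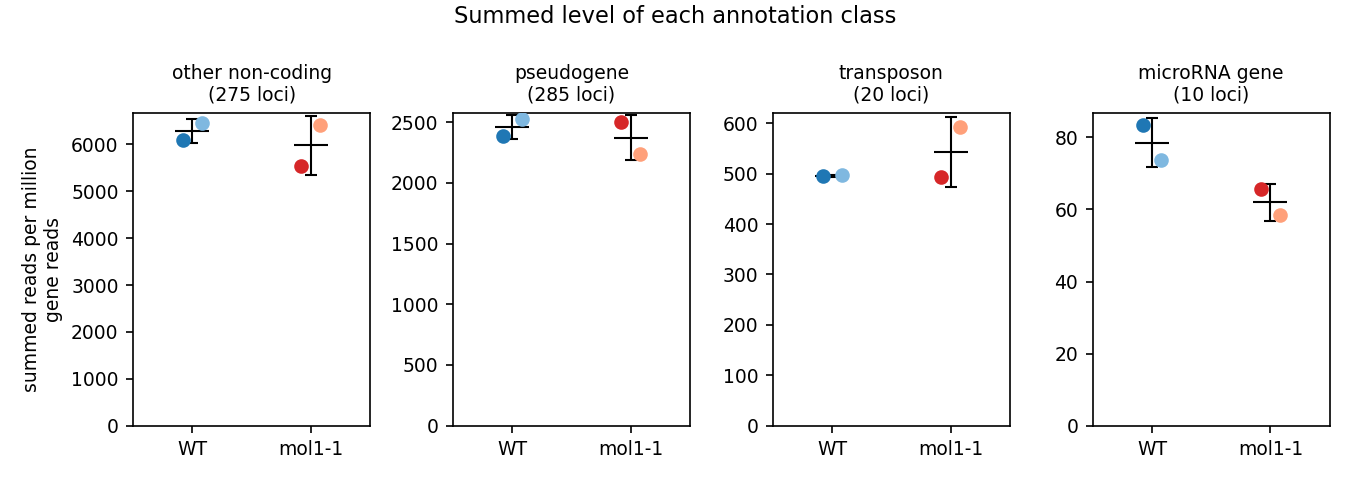
Summed level of the loci of each annotation class, in RPM with each axis starting at 0; coloured points are libraries, and black marks with bars are the genotype mean ± SD (n = 2). The genotypes overlap for other non-coding loci and pseudogenes, WT lies within the mutant range for transposons, and only the microRNA genes are lower in both mutant libraries, at 65.6 and 58.3 against 83.4 and 73.8 RPM.

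The 275 other non-coding loci held 66.9% of the reads of the 591 loci and summed to 6103 and 6460 RPM in WT and 5532 and 6422 RPM in mol1-1. The log2 ratio was -0.07, with a two-sided exact permutation p of 0.667, and without mol1-1 replicate 1 it was 0.03. The 18S ribosomal RNA locus AT3G41768 alone had 84112 and 88171 reads in WT and 90592 and 80443 in mol1-1. Nuclear ribosomal RNA mostly carries no poly(A) tail. Its log2 fold change was -0.16 (SE 0.24), and 6.44% of its reads were unique. Another 18S locus, AT2G01010, also has 1 copy in the assembly TAIR10.1, at 99.9% identity, and was listed with 39, 98, 13 and 93 reads. Any copies that the assembly does not hold were not counted.

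GUT15, a long-known non-coding RNA of Arabidopsis, had 6822 and 5902 reads in WT and 7418 and 5528 in mol1-1, all unique. Its log2 fold change was -0.13 (SE 0.14), with the mutant libraries at 197 and 191 RPM below the WT libraries at 218 and 207 RPM. AT4G13495, the host of part of MIR863, had 224 and 217 RPM in WT and 166 and 184 RPM in mol1-1 (log2 fold change -0.33, SE 0.15, adjusted p 0.891). AT2G26355 and AT1G69252 had log2 fold changes of -0.003 and 0.03, and AT1G10682 had one of 0.25 (SE 0.16, adjusted p 0.974).

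The 13 spliceosomal small nuclear RNA loci and 24 small nucleolar RNA loci made smaller sums, with no call in either group. The small nuclear RNAs summed to 42.1 and 43.2 RPM in WT and 40.3 and 60.3 RPM in mol1-1. U6-1 had 15 and 6 reads in WT and 64 and 27 in mol1-1 (log2 fold change 1.92, SE 0.57, adjusted p 0.565). Only 1.79% of its reads were unique, and it has 7 copies of which the closest is 100% identical. The small nucleolar RNAs summed to 42.6 and 40.3 RPM in WT and 35.5 and 49.6 RPM in mol1-1.

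How far a locus can be read on its own depended on what else lies in the same place. Unique reads made up 58.7% to 62.4% of the reads of the 591 loci per library, against 96.5% to 96.8% over all loci. Among 399 loci that no other locus overlapped the median share of unique reads was 100%, among 73 overlapped over at most 50% of their length it was 89.7%, and among 118 overlapped over more than that it was 15.3%. Where nothing overlapped but the genome held a copy (93 loci), the median was 81.2%.

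**Figure D5:**
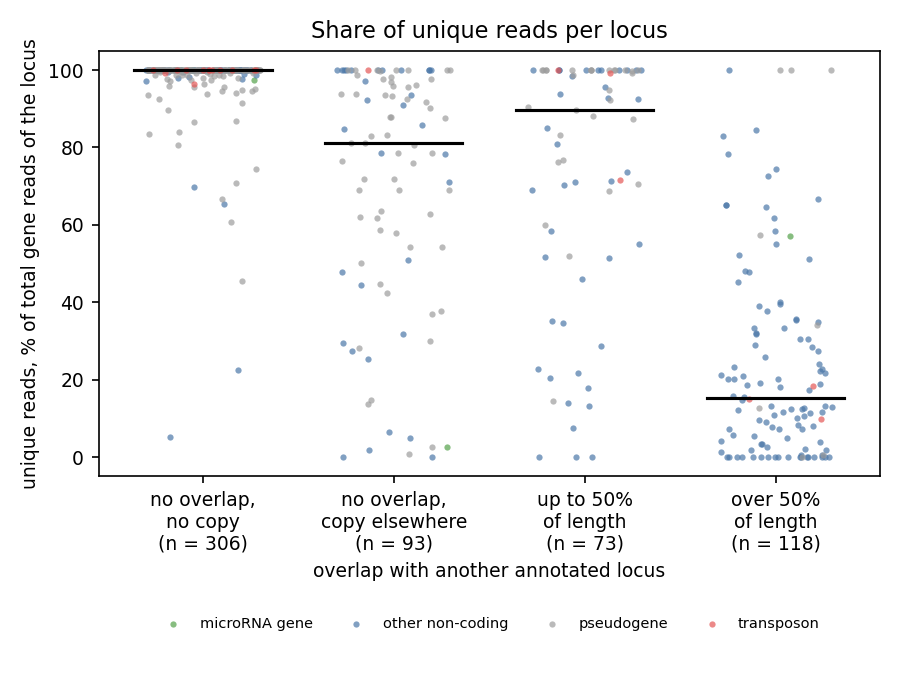
Percent of each locus's gene reads that are unique (y axis) for loci grouped by overlap with another annotated locus and by copies elsewhere; points are loci coloured by class, and black lines are group medians. The median falls from 100% for loci without overlap or copy to 15.3% for loci overlapped over more than 50% of their length.

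Overlap was frequent among the long non-coding RNAs. Of 127 such loci 125 overlapped another locus, 123 of them on the opposite strand, and their median share of unique reads was 20.2%. AT3G05905 had 28 and 54 reads in WT and 265 and 127 in mol1-1 (log2 fold change 2.04, SE 0.43, adjusted p 0.24). With all 4 libraries kept, it passed without a filter, with DESeq2 and with both replicate blocks, and in no other alternative. Only 2.53% of its reads were unique. Of the locus 84.0% lies opposite the coding gene AT3G05900, which had 13881 reads in all and a log2 fold change of 0.19. AT2G33815 lies entirely within SPL3 (AT2G33810), a flowering regulator targeted by miR156, on the opposite strand, and had 37, 30, 30 and 40 reads with none unique.

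In some pairs both loci were listed with almost the same reads. AT1G23052, with 410 and 522 reads in WT and 888 and 827 in mol1-1, had 2647 reads in all and none unique, and the gene opposite, AT1G23050, had 2665 with none unique. Their log2 fold changes were 0.73 and 0.66. AT4G26095 had 1261 reads in all, and AT4G26090, the disease resistance gene RPS2 on the other strand, had 1218, with log2 fold changes of -0.13 for both. For AT1G23052 and AT4G26095, with no unique reads on either side, the counts cannot be told apart from those of the gene opposite.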

How the data were processed

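Polyadenylated RNA was sequenced from 2 WT and 2 mol1-1 libraries. Per the file headers, the authors deposited counts of total and unique gene reads per locus, and the submitters' processing notes name the build TAIR10. Aligner, counting program, strand use and the criterion for a unique read are not given here. Exon length, as deposited, was used only to find loci without an annotated transcript. Left out were 5 unnamed rows, with 0.0577% to 0.0851% of gene reads.

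Total gene reads of all 33316 loci went into the quasi-likelihood test of edgeR 4.0.16 under R 4.3.3 (filterByExpr by genotype, glmQLFit and glmQLFTest, no covariate), with library size as the sum of gene reads and no further scaling. The standard error is the log2 fold change divided by the square root of F. The replicates differed by more than sampling noise (chi-square per degree of freedom 28.2 for WT and 61.0 for mol1-1). Class sums were compared by exact permutation. Classes, positions and sequences come from RefSeq's annotation of TAIR10.1, with the transposon class set by words in the record text. Copies come from blastn 2.17.0 against the nuclear chromosomes of TAIR10.1 (at least 90% identity over at least 50% of the length). The test was checked on simulated data.

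Loci and gene lists were chosen with earlier results of these data known. Named are MOL1, loci that passed, the most-read and furthest-moved loci of each class, loci next to the read minimum, trans-acting siRNA loci, list genes with the smallest p and the neighbours of loci that passed; ARF6, ARF8, DCL1, DDM1, MET1, SADHU1-3, MUG5, AT4G04409, AT2G01010, AT2G33815, AT1G23052 and AT4G26095 were added after their values were seen. Alternatives were TMM, RLE or upper-quartile scaling, unique gene reads, other filters, DESeq2 1.42.0, limma-voom (limma 3.58.1), replicate blocks, read minimums of 20 and 100, the class sums without their most-read locus, and each library left out, where the single remaining library was taken to vary as much as the other genotype's pair.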

Additional observations from a re-analysis of the deposited data

How the results depend on the processing

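AT5G35935 and AT2G05914 passed in all 14 alternatives, with log2 fold changes of 6.21 to 9.20 and 4.56 to 5.43. The number of loci that passed was 2 with TMM, RLE or upper-quartile scaling, unique gene reads, a filter at 1 RPM, limma-voom and read minimums of 20 or 100. It was 7 of 591 without a filter and 6 of 584 with DESeq2, where 0.964% and 1.45% of all loci passed. It also changed with 1 library left out. Whether the replicate numbers pair the libraries is not known. By the sample titles, same-numbered libraries deviated with a correlation of -0.23, but the mutant libraries carry the numbers 2 and 3 in names inside their tables, so that WT replicate 2 shares its number with the library titled mol1-1 replicate 1. With the replicate block by title 9 of 584 passed, against 1.2% of all loci. With the crossed pairing, which joins those 2 libraries and was chosen after seeing the data, 6 of 584 passed, against 1.01% of all loci. MIR167d and SADHU5-1 were among those that passed under both pairings.

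With 1 library left out, the log2 ratio of the class sum ranged from -0.14 to 0.0247 for pseudogenes, from -0.00615 to 0.26 for transposons and from -0.18 to 0.032 for other non-coding loci. The microRNA sum stayed below 0 in all 8 alternatives run on it. Among single loci, none of which passed, the log2 fold change crossed 0 in these ranges with 1 library left out: MIR869 -1.13 to 0.21, MIR398c -0.60 to 1.20, MIR164b -1.63 to 0.45, MIR863 -0.26 to 0.73, AT2G26355 -0.13 to 0.12, AT1G69252 -0.15 to 0.19, AT1G79245 -0.40 to 0.24, AT2G11240 -0.54 to 0.10, AT2G04110 -0.11 to 0.0207, AOP2 -1.12 to 0.0563, SADHU1-1 -0.16 to 0.38, MUG4 -0.0418 to 0.18, MUG1 -0.26 to 0.0342, AT4G09875 -3.28 to 0.19, TAS1A -0.30 to 0.0691, TAS3 -0.39 to 0.59, TAS4 (AT3G25795) -1.10 to 0.40 and AT2G05910 -0.33 to 0.25. MIR863 was -0.22 with unique reads. AT2G26355 was 0.0284, 0.0308 and 0.0147, and AT2G05910 0.0126, 0.0148 and 0.0011, with TMM, RLE and upper-quartile scaling. The cause was not tested. Loci near the read minimum rest on few reads, which limits the differences that could be detected there.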
